A study of Homo sapiens with 4 samples.

Results

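The D-type cyclins CCND1, CCND2 and CCND3, their kinases CDK4 and CDK6, the retinoblastoma family RB1, RBL1 and RBL2, and the CDK inhibitors CDKN1B and CDKN1C are described here in DROSHA-depleted and control MDA-MB-231 cells. The 10 genes were listed by name, and each was found by its platform gene symbol, with the brightest probe set taken per gene. All 10 were measured, out of 15870 genes with a named probe set, and each had 1 probe set. The MDA-MB-231 line was established from a human breast carcinoma and has a mesenchymal-like character. Total RNA was measured on 4 Affymetrix arrays, 2 of cells with a hairpin construct directed at DROSHA (shDROSHA) and 2 of control cells (shNC), all grown in L-15 medium with serum and antibiotics. The study's design text names mock-transfected cells as the control, whereas the sample labels read shNC, and the hairpin sequence, the number of clones and the time after delivery were not stated. The titles call the replicates biological; p-values measure the spread between these arrays only.

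In G1, D-type cyclins bind CDK4 or CDK6, and the active kinases phosphorylate the retinoblastoma proteins. Hypophosphorylated RB1 (pRB) holds the activating E2F factors in check. RBL1 (p107) and RBL2 (p130) pair mainly with E2F4 and E2F5 and, with the MuvB core, form the DREAM complex that represses cell cycle genes in quiescent cells. CDKN1B (p27) and CDKN1C (p57) bind cyclin-CDK complexes and inhibit chiefly the cyclin E and cyclin A kinases. DROSHA is the nuclear ribonuclease that releases precursor microRNAs from their primary transcripts, and several microRNAs are known from published reporter experiments in human cells to repress genes of this group.

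The mature sequences of 10 such microRNAs are shown because they are products of the pathway that was depleted and have published targets in this group. They come from RefSeq (GRCh38.p14), which held all 10, and run 5′ to 3′ with the seed, bases 2 to 8, in capitals. The let-7 seed has been assigned to CCND2 and CDK6, the shared miR-15 and miR-16 seed to CCND1, CCND3 and CDK6, the shared miR-17, miR-20a and miR-106b seed to CCND1, RB1 and RBL2, the miR-29 seed to CDK6, and the miR-221 and miR-222 seed to CDKN1B and CDKN1C.
let-7a-5p: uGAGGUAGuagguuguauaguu
miR-15a-5p: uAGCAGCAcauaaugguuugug
miR-16-5p: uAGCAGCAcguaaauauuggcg
miR-17-5p: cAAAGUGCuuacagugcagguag
miR-20a-5p: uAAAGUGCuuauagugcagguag
miR-106b-5p: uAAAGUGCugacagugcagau
miR-29a-3p: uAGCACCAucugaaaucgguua
miR-29b-3p: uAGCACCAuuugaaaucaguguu
miR-221-3p: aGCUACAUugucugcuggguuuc
miR-222-3p: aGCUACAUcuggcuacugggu
The 10 microRNAs hold 5 different seeds. Levels of mature microRNAs were not analysed here, so whether any of these changed in the shDROSHA cells was not tested.

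CDK6 rose and RBL2 fell in shDROSHA cells, and the other 8 genes did not pass the test. CDK6 was 1.33-fold higher and RBL2 was 1.45-fold lower. RB1 and RBL1 were higher and CCND1 and CDKN1B lower in both shDROSHA arrays than in both shNC arrays. Each differed by less than 0.2 on the log2 scale without passing, and the groups of CDKN1B were only 0.018 apart. CCND2, CCND3, CDK4 and CDKN1C had overlapping groups. The test was limma with a variance that follows signal level, with p-values adjusted by Benjamini-Hochberg across all 18603 probe sets and calls made at adjusted p 0.05; all adjusted p-values below come from it unless the constant prior is named. It called 6.41% of all probe sets, 3.12% higher and 3.28% lower, against 2 of the 10 genes, 1 in each direction. With a constant prior variance limma called 0.00538% of all probe sets and 0 of the 10 genes, of which 2 had an unadjusted p under 0.05.

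**Figure D1:**
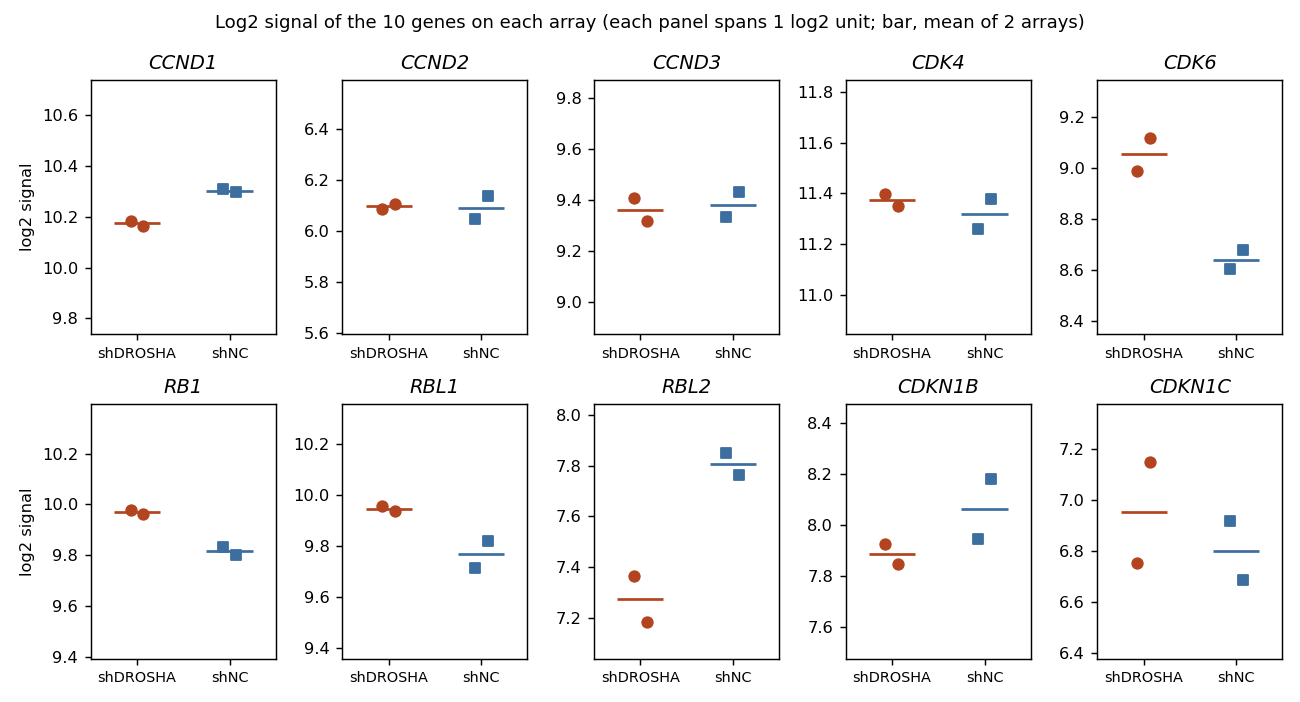
Log2 signal (vertical axis) of the 10 genes on the 2 shDROSHA arrays (circles) and the 2 shNC arrays (squares), with a bar at each group mean and the same span of 1 log2 unit in every panel. CDK6 is higher and RBL2 lower in shDROSHA with the widest gaps between groups, and the groups of CCND2, CCND3, CDK4 and CDKN1C overlap.

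The values are log2 signals summarised by the authors with RMA, and they lay between 3.35 and 13.59 over all probe sets. DROSHA itself had log2 signals of 8.71 and 8.74 in the shDROSHA arrays against 9.66 and 9.76 in the shNC arrays, a 1.98-fold lower level (adjusted p = 3.89e-06). With a constant prior variance in limma DROSHA did not pass either (adjusted p = 0.0843). The share of probe sets called grew with signal, at 0.833%, 1.94%, 4.7%, 8.92% and 15.6% in the 5 equal bins of all probe sets ordered by rising signal. Of the 10 genes, CCND1, CCND3, CDK4, RB1 and RBL1 were in the brightest of these bins, CDK6 and CDKN1B in the fourth, RBL2 and CDKN1C in the third and CCND2 in the second. The groups did not overlap at 6 of the 10 genes, against 47.8% of all probe sets. Of 6 mesenchymal-like markers, AXL rose (log2 fold change 0.33), CAV1 fell (-0.23) and 4 did not pass, at mean log2 signals from 8.23 for FN1 to 11.96 for CAV1. The 4 measured luminal and epithelial markers, ESR1, GATA3, FOXA1 and EPCAM, had mean log2 signals of 6.15 to 7.08, and 7 measured markers of other cell types had 4.41 to 6.51; 0 of these 11 passed.

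**Figure D2:**
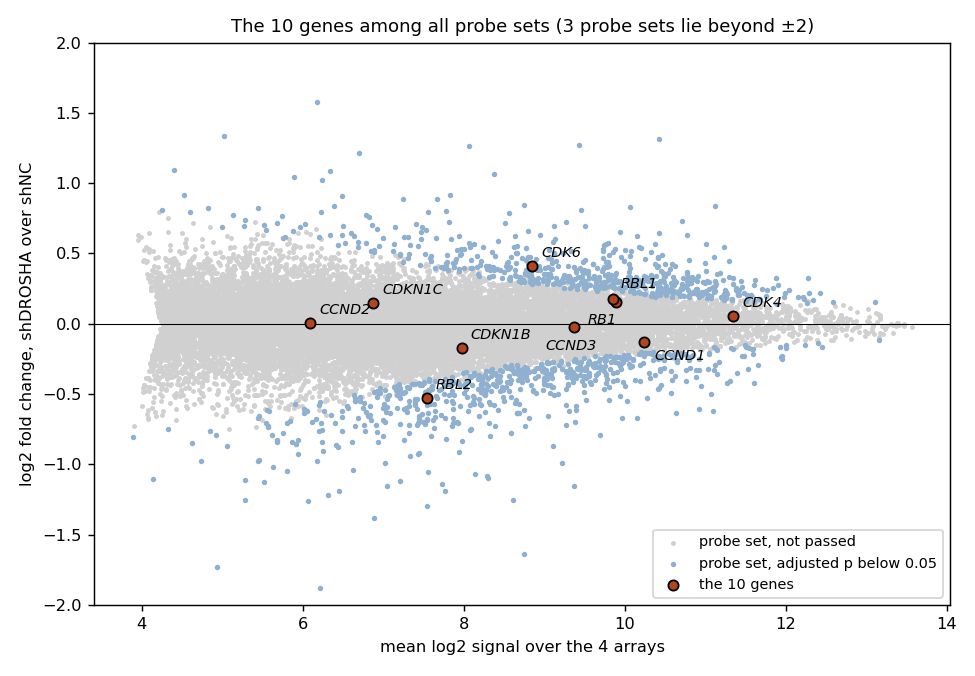
Log2 fold change of shDROSHA over shNC (vertical axis) against mean log2 signal over the 4 arrays (horizontal axis) for all probe sets, with those of adjusted p below 0.05 in blue and the 10 genes in red; 3 probe sets lie beyond the vertical axis. CDK6 and RBL2 sit among the called probe sets, and the scatter narrows with rising signal.

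CDK6, the kinase that shares the D-type cyclins with CDK4, had log2 signals of 8.99 and 9.12 in the shDROSHA arrays, against 8.60 and 8.68 in the shNC arrays. Both shDROSHA arrays lay above both shNC arrays, and the gap between the groups, 0.31, was wider than the spread within either of them. The means were 9.05 ± 0.093 in shDROSHA and 8.64 ± 0.053 in shNC (SD, n = 2 each), and CDK6 rose by a log2 fold change of 0.41 (SE 0.082, 95% interval 0.24 to 0.59, adjusted p = 0.0079 in limma). Its p-value ranked 439 among the 18603 probe sets. The call was lost with a constant prior variance (adjusted p = 0.206) and without shNC replicate 1 (adjusted p = 0.0618, log2 fold change 0.38), while the difference was 0.35 to 0.48 without any 1 of the 4 arrays.

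CDK4, the paralogous kinase, had log2 signals of 11.40 and 11.35 in the shDROSHA arrays against 11.26 and 11.38 in the shNC arrays. The groups overlapped, since shNC replicate 2 lay between the shDROSHA arrays. The log2 fold change was 0.05 (SE 0.050, adjusted p = 0.628 in limma), and its 95% interval of -0.05 to 0.16 lay wholly below the interval of CDK6, 0.24 to 0.59. The difference between these changes was not itself tested.

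**Figure D3:**
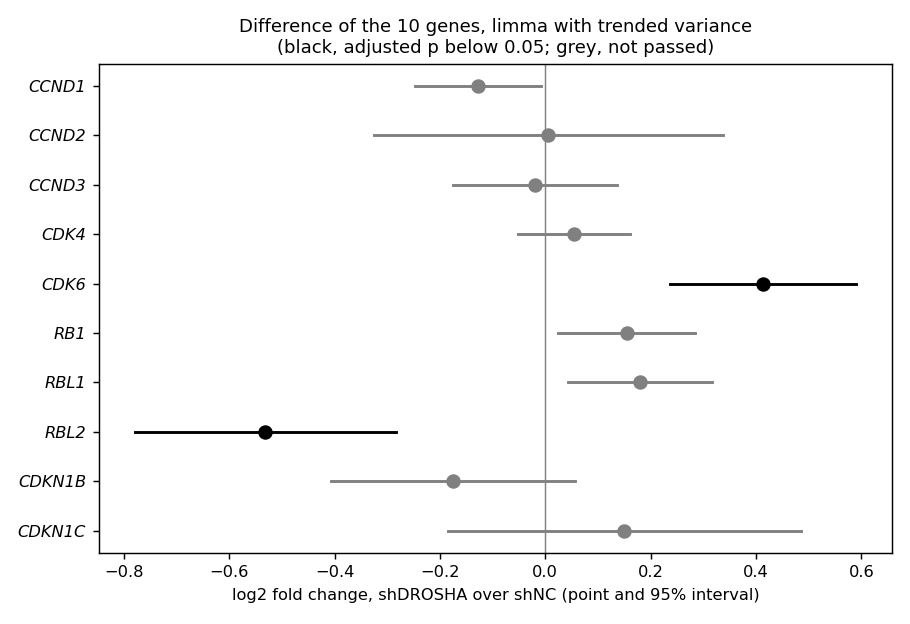
Log2 fold change of shDROSHA over shNC (horizontal axis) for the 10 genes, with points for the estimate and lines for the 95% interval of limma with a variance that follows signal; black marks the genes that passed adjusted p 0.05. The intervals of CDK6 (0.24 to 0.59) and RBL2 (-0.78 to -0.28) lie on opposite sides of 0.

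None of the 3 D-type cyclins passed. CCND1, the D cyclin best known as an oncogene in breast cancer, had log2 signals of 10.18 and 10.16 in the shDROSHA arrays against 10.31 and 10.30 in the shNC arrays. The arrays of each group lay close together and the groups did not overlap, but the log2 fold change was only -0.13 (SE 0.055, 95% interval -0.25 to -0.01) and did not pass (adjusted p = 0.218, unadjusted p = 0.0374, in limma). It was -0.14 to -0.12 without any 1 array, with adjusted p-values of 0.252 to 0.552. CCND3, a D cyclin used widely in blood and muscle cells, had log2 signals of 9.41 and 9.32 in the shDROSHA arrays against 9.33 and 9.43 in the shNC arrays. The groups overlapped almost fully and the log2 fold change was -0.02 (95% interval -0.18 to 0.14, adjusted p = 0.929 in limma), with a positive sign, 0.01, when each array was centred on its median. CCND2 had log2 signals of 6.09 and 6.11 in the shDROSHA arrays against 6.05 and 6.14 in the shNC arrays, so both shDROSHA arrays lay between the shNC arrays. Its log2 fold change was 0.01 with a 95% interval of -0.32 to 0.34 (adjusted p = 0.992 in limma). CCND2 was the dimmest of the 10 probe sets relative to the array, at the 29.0th percentile of all probe sets, where fold changes are compressed and a probe set can reflect background.

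Of the 3 retinoblastoma family genes RBL2 fell, while RB1 and RBL1 were higher without passing. RBL2, the pocket protein that is most abundant in resting cells, had log2 signals of 7.37 and 7.18 in the shDROSHA arrays against 7.85 and 7.76 in the shNC arrays. Both shDROSHA arrays lay below both shNC arrays, with a gap of 0.40 between the groups. The means were 7.28 ± 0.129 in shDROSHA and 7.81 ± 0.060 in shNC (SD, n = 2 each), and RBL2 fell by 0.53 on the log2 scale (SE 0.115, 95% interval -0.78 to -0.28, adjusted p = 0.0133 in limma). This was the largest difference of the 10 genes, and its p-value ranked 586 among the 18603 probe sets. The call was lost with a constant prior variance (adjusted p = 0.180) and without shNC replicate 1 (adjusted p = 0.120, log2 fold change -0.49), and the difference was -0.62 to -0.44 without any 1 of the 4 arrays.

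RB1, the tumour suppressor that restrains the activating E2F factors, had log2 signals of 9.98 and 9.96 in the shDROSHA arrays against 9.83 and 9.80 in the shNC arrays. RBL1, the pocket protein that accumulates in cycling cells and whose gene is itself a known E2F target, had log2 signals of 9.96 and 9.94 in the shDROSHA arrays against 9.71 and 9.82 in the shNC arrays. For both genes the shDROSHA arrays lay above the shNC arrays. The log2 fold change of RB1 was 0.15 (SE 0.060, 95% interval 0.03 to 0.28, adjusted p = 0.164, unadjusted p = 0.0227) and that of RBL1 was 0.18 (SE 0.064, 95% interval 0.04 to 0.32, adjusted p = 0.122, unadjusted p = 0.0139), both in limma. Neither passed over all probe sets, nor under any alternative setting run. The 95% intervals of RB1 and RBL1 lay above 0 and that of RBL2 below 0. Without any 1 array the log2 fold change was 0.14 to 0.17 for RB1 and 0.13 to 0.23 for RBL1.

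**Figure D4:**
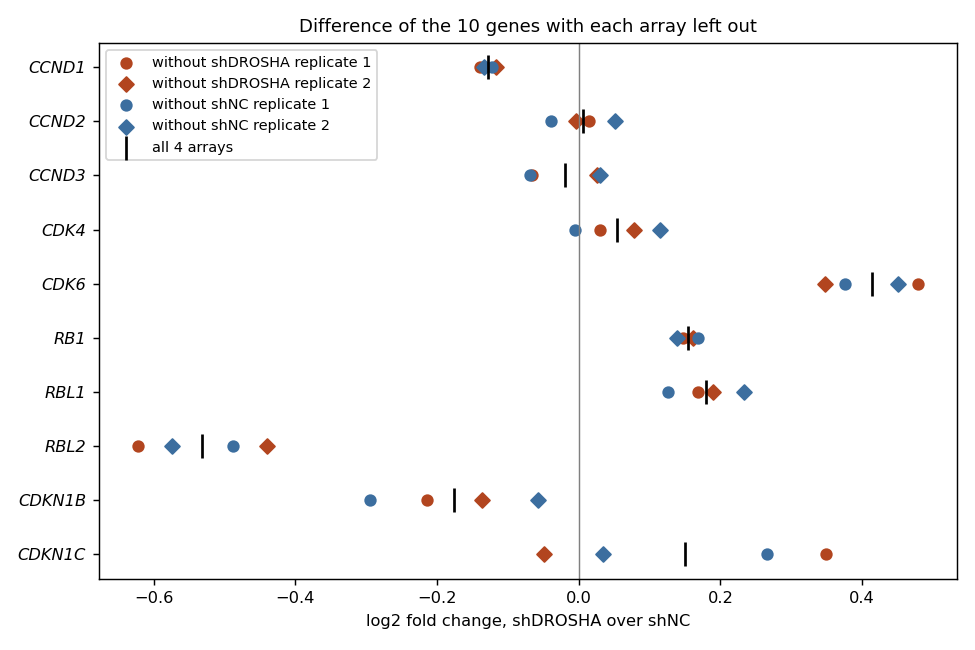
Log2 fold change of shDROSHA over shNC (horizontal axis) of the 10 genes with all 4 arrays (black tick) and with each array left out (red, an shDROSHA array; blue, an shNC array; circles, replicate 1; diamonds, replicate 2). CDK6 stays at 0.35 to 0.48 and RBL2 at -0.62 to -0.44, whereas CDKN1C spans -0.05 to 0.35.

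The inhibitors did not pass. CDKN1B, which encodes p27, had log2 signals of 7.93 and 7.85 in the shDROSHA arrays against 7.94 and 8.18 in the shNC arrays. The groups did not overlap, but only 0.018 separated the higher shDROSHA array from the lower shNC array, and shNC replicate 2 stood above the other 3. Its log2 fold change of -0.18 (SE 0.108, 95% interval -0.41 to 0.06, adjusted p = 0.419 in limma) became -0.06 when shNC replicate 2 was left out and -0.29 when shNC replicate 1 was. CDKN1C, which encodes p57, had log2 signals of 6.75 and 7.15 in the shDROSHA arrays against 6.92 and 6.69 in the shNC arrays. Its SD was 0.281 in shDROSHA, the widest of the 10 genes there, and 0.164 in shNC, and shDROSHA replicate 2 was the highest array. The log2 fold change was 0.15 (95% interval -0.18 to 0.49, adjusted p = 0.683 in limma), 0.35 without shDROSHA replicate 1 and -0.05 without shDROSHA replicate 2.

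The promoters of the 3 genes RBL1, RBL2 and CDK6 are shown because RBL2 and CDK6 passed and because RBL1, the pocket protein gene known as an E2F target, differed in the other direction from RBL2 without passing. Sequences are from RefSeq (GRCh38.p14), 5′ to 3′ on the gene's strand, from 100 bases before to 20 bases after the annotated start of the gene. They lie at chr20:37095978-37096097 (minus strand) for RBL1, chr16:53434371-53434490 (plus strand) for RBL2 and chr7:92836554-92836673 (minus strand) for CDK6. Capitals mark matches, on either strand, to an E2F motif (TTTNNCGC) and to the GC box bound by SP1 (GGGCGG), and no match of one overlapped a match of the other in these windows.
RBL1: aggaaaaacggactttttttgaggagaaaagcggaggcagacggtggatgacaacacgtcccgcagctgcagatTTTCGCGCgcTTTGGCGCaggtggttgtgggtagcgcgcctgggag
RBL2: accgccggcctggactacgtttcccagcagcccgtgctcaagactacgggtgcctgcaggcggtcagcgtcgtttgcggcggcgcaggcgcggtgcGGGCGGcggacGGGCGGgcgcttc
CDK6: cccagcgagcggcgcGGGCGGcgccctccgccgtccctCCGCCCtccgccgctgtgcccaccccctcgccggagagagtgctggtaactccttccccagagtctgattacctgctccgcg
The RBL1 window held 2 E2F matches, TTTCGCGC starting 26 bases and TTTGGCGC starting 16 bases before the start, and no GC box. In the full 300 bases of the RefSeq promoter entry, RBL2 held 0 E2F matches and 2 GC boxes and CDK6 held 0 and 3. Of all 35116 promoter entries of that length, 6.89% held the E2F motif and 45% the GC box. An entry at the annotated gene start was matched for 5 of the 10 genes (CDK4, CDK6, RBL1, RBL2 and CDKN1B), of which RBL1 alone held the E2F motif and the other 4 a GC box. A match is a description of letters; binding was not measured.

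Genes that act with or downstream of the D cyclin kinases were taken from 7 lists of 58 genes, of which 56 were measured. In shDROSHA cells 14 rose and 1 fell, whereas 41 did not pass, and the median log2 fold change was 0.08, against a median of 0.001 over all probe sets. Over all probe sets 3.12% were called higher and 3.28% lower. Of the 56 genes, 41 were in the 2 brightest of the 5 signal bins, where 8.92% and 15.6% of all probe sets were called, and 15 in the 3 dimmer ones, among them E2F5, E2F2 and CDC25A. The genes were chosen with earlier results known, so the count is a description. With a constant prior variance 0 of the 56 passed over all probe sets (12 at an unadjusted p under 0.05 in limma), and without shNC replicate 1 the count was 8.

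The cyclins and kinase that act after CDK4 and CDK6 included the smallest p-value of these lists. CCNA2, cyclin A2 of S phase and mitosis, had log2 signals of 11.30 and 11.39 in the shDROSHA arrays against 10.85 and 10.89 in the shNC arrays. It rose by 0.47 (SE 0.049, adjusted p = 7.73e-05 in limma). CCNE2, cyclin E2, which activates CDK2 at the G1/S boundary, had 9.44 and 9.30 in the shDROSHA arrays against 8.81 and 8.92 in the shNC arrays and rose by 0.50 (SE 0.079, adjusted p = 0.0018 in limma). CCNE1, cyclin E1, was lower in both shDROSHA arrays without passing (log2 fold change -0.30, adjusted p = 0.176), and CDK2 was higher without passing (0.14, adjusted p = 0.183). The 3 subunits of the CDK-activating kinase, which phosphorylates CDK4 and CDK6 on their activating loop, did not pass: the log2 fold change was 0.26 for CCNH, 0.11 for MNAT1 and 0.07 for CDK7.

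Of the 10 listed E2F and DP factors, 2 rose, 1 fell and 7 did not pass. E2F5, a repressor E2F known as a partner of p130, fell by 0.92 (SE 0.123, adjusted p = 5.28e-04 in limma), with log2 signals of 7.11 and 6.85 in the shDROSHA arrays against 7.87 and 7.94 in the shNC arrays. E2F5 and RBL2 were both lower in both shDROSHA arrays. E2F2, an activating E2F, rose by 0.63 (SE 0.156, adjusted p = 0.0276) and E2F8, an atypical repressor, by 0.34 (SE 0.092, adjusted p = 0.0444). E2F1 and E2F3, also activating E2Fs, were lower in both shDROSHA arrays without passing. Their log2 fold changes were -0.20 and -0.26 (adjusted p = 0.401 and 0.280 in limma). Of the 10 factors, 7 had a log2 fold change above 0 and 3 below 0. The groups did not overlap at 47.8% of all probe sets. E2F4, the other main partner of the p107 and p130 proteins, had a log2 fold change of 0.15 and did not pass (adjusted p = 0.271). Of the MuvB core and MYBL2, 2 of 6 rose: MYBL2, which joins MuvB in proliferating cells in place of the pocket proteins, by 0.38 (SE 0.068, adjusted p = 0.0037), and LIN52, the MuvB subunit that contacts them, by 0.33 (SE 0.083, adjusted p = 0.0277). RBBP4, a histone-binding subunit, had -0.12 and did not pass.

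Of 9 genes for turnover of D cyclins and p27, 2 rose and 7, all with log2 fold changes below 0, did not pass. SKP2, the F-box protein that marks phosphorylated p27 for degradation, had log2 signals of 10.58 and 10.42 in the shDROSHA arrays against 10.16 and 10.19 in the shNC arrays and rose by 0.32 (SE 0.062, adjusted p = 0.0062 in limma). CKS1B, the cofactor that SKP2 needs for p27, rose by 0.20 (SE 0.047, adjusted p = 0.0176). FBXO4, an F-box protein described for cyclin D1, had a log2 fold change of -0.23 and did not pass (adjusted p = 0.307). Protein levels and stability were not measured.

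The other CDK inhibitors did not pass either, with 0 of 4 measured genes called and a median log2 fold change of -0.07. CDKN1A, the p53-induced inhibitor p21, had a log2 fold change of 0.14 (95% interval -0.19 to 0.46). CDKN2B and CDKN2D, which inhibit CDK4 and CDK6 directly, had -0.05 and -0.09. CDKN2A, a gene known to be deleted in MDA-MB-231, had log2 signals of 5.34 and 5.43 in the shDROSHA arrays against 5.68 and 5.43 in the shNC arrays, in the dimmest of the 5 signal bins, and its log2 fold change of -0.17 did not pass.

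Among 20 measured E2F target genes of S phase entry, 6 rose and 0 fell, the other 14 not passing, and the median log2 fold change was 0.09. Over all probe sets 3.12% were called higher and 3.28% lower, and 15.6% were called in either direction in the brightest signal bin, which held 14 of the 20 genes. CDC25A, the phosphatase that activates cyclin-CDK complexes, rose by 0.61 (SE 0.126, adjusted p = 0.0102), MCM6, part of the helicase that unwinds replication origins, by 0.47 (SE 0.080, adjusted p = 0.0032) and TYMS, thymidylate synthase, by 0.25 (SE 0.058, adjusted p = 0.0186), all in limma. The log2 fold changes of the 20 genes ran from -0.10 for CDT1 to 0.61 for CDC25A. An E2F motif was found in 13 of the 17 of these listed genes with a promoter entry at the gene start, against 6.89% of all entries. All entries were not limited to gene starts or to 1 entry a gene, so the sets are unlike. Membership of the list is itself by known E2F control.

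**Figure D5:**
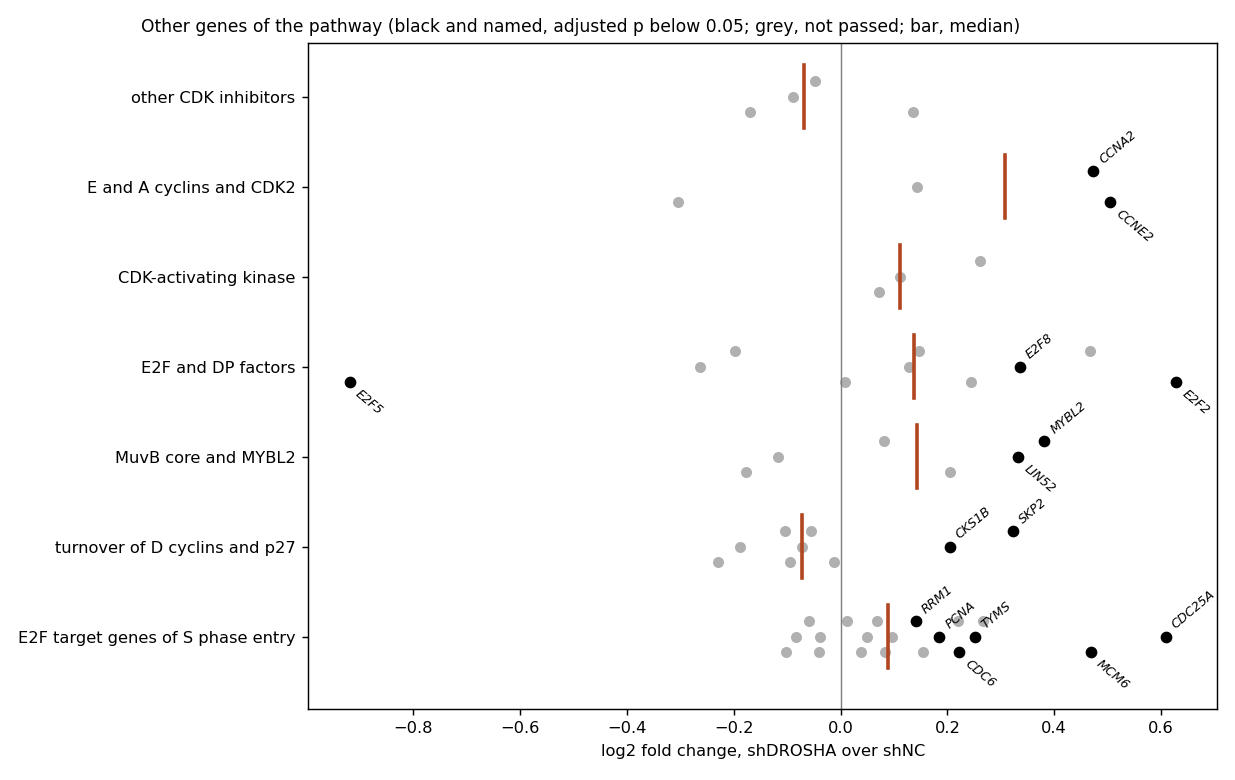
Log2 fold change of shDROSHA over shNC (horizontal axis) of the 56 measured genes of the 7 pathway lists (rows), 1 point per gene, black and named where adjusted p was below 0.05 and grey otherwise, with a red bar at each list's median. E2F5 (-0.92) is the 1 named gene left of 0, and 14 named genes lie right of it.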

How the data were processed

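Each array's deposited file column holds log2 signals of its probe sets, made with RMA per the submitters' processing notes; RMA corrects background, normalizes quantiles and summarises probes. Its version, any filter and the genome build were not stated. Since RMA leaves arrays with nearly equal distributions, a shift common to most transcripts cannot be seen. Of 18603 probe sets, 15886 had 1 gene symbol, 0 several and 2717 none; all 15886 matched RefSeq (GRCh38.p14) by Entrez identifier.

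The groups were compared with limma 3.58.1 in R 4.3.3 (lmFit, then eBayes with a trend), Benjamini-Hochberg adjusted over all probe sets at 0.05, with 2 residual and 11.9 prior degrees of freedom. The trend was made the main setting, and the genes, lists and alternatives were chosen, with earlier results of these data known. Alternatives were a constant or robust prior, filters on dim probe sets, median centring, repeated quantile normalization, 1 probe set per gene, a block for the replicate number, a threshold of 0.10 and leaving out each array. With 2 arrays a group, an exact permutation test cannot give a two-sided p below 0.333. The number of arrays limits the precision. In a test on simulated data of this comparison with 18603 probe sets, 78% of changes of 0.5 and 99% of changes of 1 on the log2 scale were called. There 10 unchanged probe sets were also called. The simulated spread was set by signal level alone, without differences in spread between probe sets of like signal. It was smoothed on the square root of the residual SD, which with 2 residual degrees of freedom also makes it too small. These shares can therefore be higher than on the real arrays.

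Named genes were the 10 genes, DROSHA, every other measured CDK inhibitor and E or A cyclin, up to 3 genes of each further list by smallest p, and markers at the ends of their range. CDK2, E2F1, E2F3, E2F4, CDT1, AXL, FOXA1 and EPCAM lay outside this rule and were named after their values were seen. Listed genes without a named probe set were not analysed here.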

Additional observations from a re-analysis of the deposited data

How the results depend on the processing

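Of 118 values of the 10 genes under single alternatives, 107 kept their direction and side of the threshold, 4 lost the call and 7 reversed. The 4 were CDK6 and RBL2 with a constant prior variance and without shNC replicate 1. The prior, the filters, the block and 1 probe set per gene leave each log2 fold change as it was. These settings could not reverse a direction, and leaving out 1 array could not where the groups did not overlap. Keeping the direction was therefore fixed in advance for part of the 118 values. All 7 reversals were of small, uncalled differences: the log2 fold change of CCND3 was 0.013 with each array centred on its median. Without 1 array it was -0.069 to 0.029 for CCND3, -0.039 to 0.051 for CCND2, -0.0059 to 0.115 for CDK4 and -0.049 to 0.349 for CDKN1C. The number of the 10 genes called was 2 in the main setting, 0 with a constant prior variance and 0 to 2 without 1 array, the 0 being without shNC replicate 1 (3 at an unadjusted p under 0.05 in limma). The pathway lists had 15 calls, 0 with a constant prior variance, and 8 to 15 without 1 array. Over all probe sets 1192 were called, against 1 with a constant prior variance (2774 at an unadjusted p under 0.05), 1824 at adjusted p 0.10, and 535 to 1949 without 1 array (535 without shNC replicate 1, 1949 without shDROSHA replicate 1, 748 without shNC replicate 2). There the lone array's spread was taken to be that of the other group. Each such fit also estimated its own prior variance and prior degrees of freedom. Calls kept or gained with fewer arrays therefore do not show that a difference is more certain. Centred on array medians, 62.5% of calls were higher, against 48.7% as deposited, and CDK6 and RBL2 kept their calls. The pathway lists had 17 calls when so centred, 12 with repeated quantile normalization and 18 at adjusted p 0.10, against 15 in the main setting. With the replicate number as a block 1391 probe sets were called and the same 2 of the 10 genes passed. Deviations from the group means correlated at -0.022 over all probe sets between arrays of the same number, so no broad shared shift was seen. Whether arrays of the same number were prepared together cannot be told from this value. Each of the 10 genes had 1 probe set, so taking another probe set of the same gene gave no value. The looser threshold acts by construction, and the cause of the other differences was not tested. Dim probe sets such as that of CCND2 limit what could be detected.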
